A study of Mus musculus with 8 samples.

Results

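The 10 genes that build, remodel or transport the phospholipids into which docosahexaenoic acid (DHA) is incorporated were followed in the liver of aged obese mice. They were chosen by name, as the rows of the count tables whose Ensembl identifier belongs to Lpcat1, Lpcat3, Mboat7, Agpat2, Agpat3, Mfsd2a, Lpin1, Lpin2, Chka or Pcyt1a. All 10 were present among the 56884 genes of the tables, and all 10 passed the filter on low counts that left 12412 genes for testing. Poly(A) RNA from whole liver had been sequenced with a 3′-enriched protocol, with 1 library per mouse, in a DIO group of 3 mice and a DIO + DHA group of 5. All were C57BL/6J females in which obesity had been induced over 4 months by a diet deriving 45% of its energy from lipid. The DIO group stayed on that diet until 18 months of age. The DIO + DHA group ate it over the same period with 15% by weight of the dietary lipids replaced by a fish oil concentrate containing 683.4 mg of DHA and 46.7 mg of eicosapentaenoic acid per g. Both diets received the same tocopherol mixture, the mice were killed after an overnight fast, and the labels place all libraries in batch 1. The concentrate brought eicosapentaenoic acid along with DHA and took the place of other dietary lipids, so these components of the diet cannot be told apart.

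Glycerophospholipids are made in the liver from phosphatidic acid, which lysophosphatidic acid acyltransferases such as AGPAT2 and AGPAT3 form. Lipins then remove its phosphate to give diacylglycerol, to which the Kennedy pathway adds phosphocholine made by choline kinase and activated as its CDP form by PCYT1A. In the Lands cycle, phospholipases remove an acyl chain and lysophospholipid acyltransferases such as LPCAT1, LPCAT3 and MBOAT7 put another in its place, which sets the fatty acid composition of membranes. MFSD2A is a sodium-dependent transporter of lysophosphatidylcholine, best known for carrying DHA in that form into the brain and the eye.

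Relative to the DIO group, 3 of the 10 genes were higher in the DIO + DHA group (Agpat2, Agpat3 and Chka), 3 were lower (Mfsd2a, Lpin1 and Lpin2), and 4 did not pass the test (Lpcat1, Lpcat3, Mboat7 and Pcyt1a). The test was the quasi-likelihood test of edgeR, its p-values adjusted by the Benjamini-Hochberg method over all 12412 genes, at an adjusted p under 0.05. By the same rule 15.2% of all genes tested were called, 7.89% higher and 7.28% lower. The genes were selected with earlier results of these data known, so their share is a description. Each of the 6 called genes had libraries of the groups that did not overlap, as did 18.4% of all genes tested, 9.55% with the DIO + DHA libraries above and 8.88% with them below. The changes of the 6 called genes were between 0.22 and 0.74 in size on the log2 scale. Over all 10 genes, which went both ways, the median of the signed log2 differences was 0.06, beside 0.00 over all genes tested. Levels are given in CPM, the count of a gene relative to the total of its library, scaled between libraries by the TMM method. They are used to describe a gene across libraries only.

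**Figure D1:**
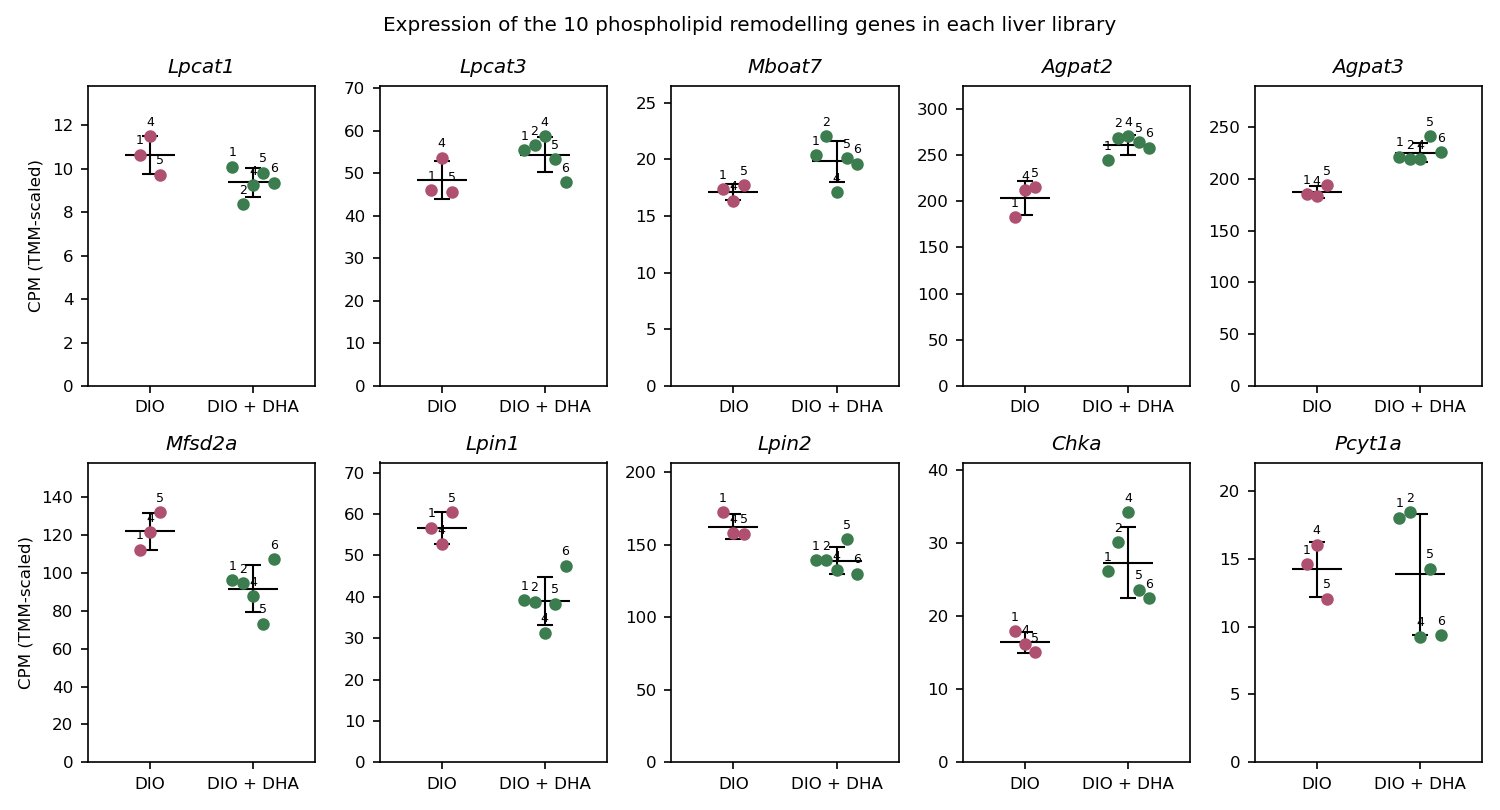
Level of each of the 10 genes in CPM (vertical axis, linear and separate for each gene) in the 3 DIO and 5 DIO + DHA libraries, with small numbers giving the replicate and lines the mean and SD. The groups do not overlap for Agpat2, Agpat3, Mfsd2a, Lpin1, Lpin2 and Chka, and they overlap for the other 4 genes.

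The liver identity of the samples was checked first. The summed level of 8 hepatocyte markers ran from 87649 to 93744.5 CPM in the DIO group and from 91231.6 to 108886 CPM in the DIO + DHA group, and the groups overlapped. Total counts ran from 1723800 in DIO replicate 1 to 5690347. Markers of other tissues separated the groups. The sum of 15 skeletal muscle markers was 32.0 to 37.6 CPM in the DIO libraries and 1293 to 1395 CPM in the DIO + DHA libraries, and Mb, the oxygen store of muscle, had 0 counts in every DIO library and 11 to 32 in the DIO + DHA libraries. The sum of 7 adipocyte markers was 8.68 to 14.0 CPM against 87.4 to 103 CPM, mostly from Cidec and Cfd. Among the defining adipocyte markers, Plin1 had 0 counts in every DIO library and 1 to 5 in the DIO + DHA libraries, and Lep had 0 counts in all libraries but 1 of the DIO + DHA group, which had 2. Calls are not counted for these lists, because markers such as Mb, Adipoq, Retn and Ucp1 passed the filter only through the DIO + DHA group. The sum of 8 markers of stratified squamous epithelium was 0 to 1.26 CPM against 49.5 to 53.0 CPM. Macrophage markers summed to 868 to 972 CPM in the DIO group and to 501 to 536 CPM in the DIO + DHA group. Of these 12 markers, 10 were called lower and 1 higher, beside 7.28% of all genes tested called lower and 7.89% higher. The sum was also lower without overlap for markers of T and NK cells (38.1 to 48.8 against 15.2 to 18.2 CPM). Calls are not counted for that list either, because Cd8a and Cd8b1 passed the filter only through the DIO group. Markers of sinusoidal endothelial cells summed to 192 to 208 against 141 to 165 CPM, again lower without overlap. Of these 7 markers, 2 were called lower, beside the same 7.28% of all genes tested. The stellate cell and fibroblast sum, at 242 to 256 against 224 to 235 CPM, was mostly Dcn, which did not pass the test (203 ± 6.50 and 180 ± 7.92 CPM, SD, n = 3 and n = 5), and of its 7 markers Lrat was lower and Des, which muscle also expresses, was higher. The part of these tissues and cells in the changes of the phospholipid genes was not tested.

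The promoter windows of the 5 genes with the clearest changes are shown because these genes moved in opposite directions under 1 diet. Each holds 250 bases before and 50 bases after a RefSeq transcription start of the GRCm38.p6 table, found by exact match in GRCm39, and is written 5′ to 3′ on the strand of the gene. Capitals mark letters that were searched for, on both strands, namely the nuclear receptor core AGGTCA, the E-box CACGTG, the GC box GGGCGG, the TATA box TATAAA, the element CCAAT and the cyclic AMP element TGACGTCA. The windows lie at chr2:26494380-26494679 (minus strand) for Agpat2, chr10:78187485-78187784 (minus strand) for Agpat3, chr19:3901523-3901822 (plus strand) for Chka, chr4:122854932-122855231 (minus strand) for Mfsd2a and chr12:16660918-16661217 (minus strand) for Lpin1.
Agpat2: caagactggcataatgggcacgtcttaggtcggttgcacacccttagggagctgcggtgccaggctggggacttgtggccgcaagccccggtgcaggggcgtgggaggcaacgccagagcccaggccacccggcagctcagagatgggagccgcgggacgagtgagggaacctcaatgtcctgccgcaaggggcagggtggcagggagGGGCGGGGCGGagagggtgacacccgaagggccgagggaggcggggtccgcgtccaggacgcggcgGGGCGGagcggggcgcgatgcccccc
Agpat3: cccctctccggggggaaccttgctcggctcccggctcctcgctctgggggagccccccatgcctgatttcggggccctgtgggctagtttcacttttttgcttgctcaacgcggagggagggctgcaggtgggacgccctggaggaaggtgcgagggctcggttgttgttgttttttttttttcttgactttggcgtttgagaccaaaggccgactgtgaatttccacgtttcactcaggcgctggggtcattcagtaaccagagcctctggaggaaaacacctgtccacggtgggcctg
Chka: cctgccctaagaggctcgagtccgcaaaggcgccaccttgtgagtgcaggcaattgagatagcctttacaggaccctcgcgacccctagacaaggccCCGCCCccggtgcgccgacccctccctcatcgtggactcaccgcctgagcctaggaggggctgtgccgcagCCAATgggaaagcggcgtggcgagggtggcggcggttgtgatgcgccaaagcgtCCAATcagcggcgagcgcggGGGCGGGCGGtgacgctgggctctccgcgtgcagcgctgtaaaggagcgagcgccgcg
Mfsd2a: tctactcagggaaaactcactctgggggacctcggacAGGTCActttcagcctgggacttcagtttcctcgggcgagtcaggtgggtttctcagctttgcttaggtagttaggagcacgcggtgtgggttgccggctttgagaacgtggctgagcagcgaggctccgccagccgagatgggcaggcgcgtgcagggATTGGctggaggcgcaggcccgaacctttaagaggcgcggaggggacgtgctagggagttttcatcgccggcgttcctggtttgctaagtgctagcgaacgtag
Lpin1: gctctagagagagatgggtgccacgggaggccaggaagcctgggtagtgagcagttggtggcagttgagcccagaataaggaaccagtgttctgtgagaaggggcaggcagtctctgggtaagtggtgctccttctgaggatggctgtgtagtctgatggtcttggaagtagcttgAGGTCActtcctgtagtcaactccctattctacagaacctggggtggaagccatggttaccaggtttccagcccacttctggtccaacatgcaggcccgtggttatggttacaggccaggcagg

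The windows of Agpat2 and Chka each held 3 GC boxes and that of Chka also 2 CCAAT boxes, while the Agpat3 window held none of the letters searched. Mfsd2a and Lpin1 each had a single AGGTCA, which began 213 and 74 bases before the start, and Mfsd2a also had a CCAAT box. The letters did not divide the genes by the direction of their change. Lpin2, which was lower, had no AGGTCA and held GC boxes in 2 of its windows, the remaining AGGTCA lay in a window of Pcyt1a, and GC boxes were also present in Lpcat1, Lpcat3, Mboat7 and Pcyt1a, which did not pass the test. Over all 14 windows of the 10 genes, AGGTCA was present in 3, against 16.3% of 32851 promoter windows of the same length. The GC box was present in 9 of the 14, against 35.7%, and the CCAAT box in 4, against 37.4%. The E-box occurred in 1 window, of Lpin2, against 7.15% of all windows. TATAAA and TGACGTCA were found in none of the 14 and in 13.6% and 1.79% of all windows. A pair of AGGTCA letters spaced by 1 base, the arrangement known as DR1, was found in none of the 14 and in 0.0396% of all windows. Windows of 1 gene can overlap, and a match describes letters and no binding. The starts used for Lpin1, Agpat3 and Mboat7 lie inside the annotated genes, 36000, 789 and 537 bases from their outermost starts. Those used for Lpin2 lie 972, 1418 and 22094 bases from its outermost start. The windows of these genes therefore do not cover their outermost starts.

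Agpat2 and Agpat3 were higher in the DIO + DHA group. The related Agpat1, Agpat4 and Agpat5 did not pass the test, with log2 differences of -0.16, -0.87 and 0.02. AGPAT2 is the main such enzyme of fat cells and liver, and its loss causes a generalized lack of fat tissue. Agpat2 (chr2:26483069-26494429, minus strand, GRCm39) was measured at 182, 212 and 215 CPM in DIO replicates 1, 4 and 5, and at 244, 269, 271, 264 and 258 CPM in DIO + DHA replicates 1, 2, 4, 5 and 6. The lowest DIO + DHA library was above the highest DIO library. The means were 203 ± 18.1 (SD, n = 3) and 261 ± 10.6 (SD, n = 5), a rise of 28.4%, or 0.35 on the log2 scale with a standard error of 0.07 (edgeR's quasi-likelihood test, Benjamini-Hochberg adjusted p = 0.000305). Fat cells also express Agpat2, and adipocyte markers were higher in the same libraries by the values given above. At its 3′ end, 64 of the last 500 exon bases overlap Egfl7 on the opposite strand, and counting did not use strand.

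AGPAT3 is an acyltransferase with a known preference for DHA as the chain it adds to lysophosphatidic acid. Agpat3 (chr10:78105012-78188323, minus strand) was measured at 185, 184 and 194 CPM in the DIO libraries and at 221, 219, 219, 241 and 226 CPM in the DIO + DHA libraries. The groups were narrow and separate, with DIO + DHA replicate 5 the highest. Its mean rose from 188 ± 5.67 to 225 ± 9.40 CPM (SD, n = 3 and n = 5), or by 20.1%. The log2 difference was 0.26 with a standard error of 0.07 (edgeR, adjusted p = 0.00720), and the gene was not called under the study's own criterion, a limma-voom log-odds B over 0, which called 6.92% of all genes.

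Mfsd2a, the lysophosphatidylcholine transporter, was lower in the DIO + DHA group. The gene (chr4:122840643-122854981, minus strand) shares no exon base with another annotated gene. Its levels were 112, 121 and 132 CPM in the DIO libraries and 96.0, 94.3, 87.6, 73.1 and 107 CPM in the DIO + DHA libraries. The groups came close, DIO + DHA replicate 6 lying just under DIO replicate 1, and DIO + DHA replicate 5 was the lowest of all. The mean fell from 122 ± 9.77 to 91.7 ± 12.5 CPM (SD, n = 3 and n = 5), and the log2 difference was -0.42 with a standard error of 0.09 (edgeR, adjusted p = 0.000423).

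Lpin1 and Lpin2 were lower in the DIO + DHA group, and the call of Lpin2 was the less secure. LPIN1 and LPIN2 are phosphatidate phosphatases, LPIN2 being prominent in liver, and LPIN1 also acts in the nucleus as a partner of PPARα and PGC-1α. Lpin1 (chr12:16585670-16696967, minus strand, with no exon base shared) was measured at 56.7, 52.7 and 60.4 CPM in the DIO group and at 39.2, 38.8, 31.3, 38.3 and 47.5 CPM in the DIO + DHA group. Every DIO + DHA library was below every DIO library, with replicate 4 the lowest and replicate 6 the highest of its group. The mean fell from 56.6 ± 3.83 to 39.0 ± 5.74 CPM (SD, n = 3 and n = 5), with a log2 difference of -0.52 and a standard error of 0.11 (edgeR, adjusted p = 0.000194). Skeletal muscle and fat also express Lpin1, and it was lower in the libraries in which the markers of both tissues were higher.

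Lpin2 (chr17:71489555-71556812, plus strand) was measured at 172, 158 and 158 CPM in the DIO group and at 139, 139, 132, 154 and 130 CPM in the DIO + DHA group. The libraries did not overlap, but DIO + DHA replicate 5 came within a few CPM of the lower DIO libraries. Its mean was 163 ± 8.41 CPM and 139 ± 9.23 CPM (SD, n = 3 and n = 5). The log2 difference of -0.22 had a standard error of 0.08 and lay at the edge of the threshold (edgeR, adjusted p = 0.0488). The call was lost in 12 of 18 alternative fits, among them 7 of the 8 that left out a library, with the exception of the one without DIO + DHA replicate 5, while the sign stayed negative in all 18. Lpin3, the remaining lipin gene, was measured at means of 2.12 and 1.85 CPM and did not pass the test, with a log2 difference of -0.18 and a 95% interval from -0.99 to 0.62.

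Chka showed the largest change of the 10 genes. It encodes choline kinase alpha, which phosphorylates choline in the first step of phosphatidylcholine synthesis by the Kennedy pathway. Chka (chr19:3901773-3944369, plus strand) was measured at 18.0, 16.2 and 15.1 CPM in the DIO group and at 26.1, 30.1, 34.2, 23.6 and 22.4 CPM in the DIO + DHA group, from 32 to 132 counts a library. All DIO + DHA libraries were above all DIO libraries, replicate 4 being the highest and replicate 6 the lowest of its group. The mean rose from 16.4 ± 1.46 to 27.3 ± 4.84 CPM (SD, n = 3 and n = 5), by 66.4%, or 0.74 on the log2 scale with a standard error of 0.15 (edgeR, adjusted p = 0.000128).

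Pcyt1a, whose product catalyses the rate-limiting step of the same pathway, was measured at 14.6, 16.0 and 12.0 CPM in the DIO group and at 18.0, 18.4, 9.26, 14.3 and 9.37 CPM in the DIO + DHA group. The DIO + DHA libraries spread on both sides of the DIO libraries. Their coefficient of variation was 32.1%, where counting error alone would give 13.8%. The log2 difference was -0.02, with a 95% interval from -0.41 to 0.37 (edgeR, adjusted p = 0.966), which leaves room for a change in either direction. All of the last 500 exon bases of the gene (chr16:32249739-32293888, plus strand) overlap other annotated genes, among them the antisense Slc51a, so its level is uncertain.

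Lpcat1, Lpcat3 and Mboat7, the lysophospholipid acyltransferases among the 10 genes, did not pass the test. LPCAT3 places linoleate and arachidonate in phosphatidylcholine and phosphatidylethanolamine. Lpcat3 (chr6:124639990-124681381, plus strand) was measured at 46.0, 53.6 and 45.7 CPM in the DIO group and at 55.4, 56.5, 58.7, 53.3 and 47.9 CPM in the DIO + DHA group. DIO replicate 4 lay among the DIO + DHA libraries. The log2 difference was 0.15 with a 95% interval from -0.06 to 0.35 (edgeR, adjusted p = 0.392). Of its last 500 exon bases, 334 overlap Emg1 on the opposite strand.

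MBOAT7 transfers arachidonate to lysophosphatidylinositol. Mboat7 (chr7:3680788-3696522, minus strand) was measured at 17.4, 16.4 and 17.7 CPM in the DIO group and at 20.4, 22.1, 17.1, 20.1 and 19.6 CPM in the DIO + DHA group. Only DIO + DHA replicate 4 lay within the DIO range. The log2 difference was 0.22 with a 95% interval from -0.07 to 0.51 (edgeR, adjusted p = 0.378).

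LPCAT1 prefers saturated chains and is best known from lung surfactant. Lpcat1 (chr13:73615316-73664541, plus strand, no exon base shared) was measured at 10.7, 11.5 and 9.74 CPM in the DIO group and at 10.1, 8.36, 9.26, 9.82 and 9.37 CPM in the DIO + DHA group. The groups overlapped, on 19 to 64 counts a library. The log2 difference was -0.17 with a 95% interval from -0.54 to 0.20 (edgeR, adjusted p = 0.644). The intervals of Lpcat3 and Mboat7 include a rise as large as that of Agpat3, and the interval of Lpcat1 includes a fall of that size.

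**Figure D2:**
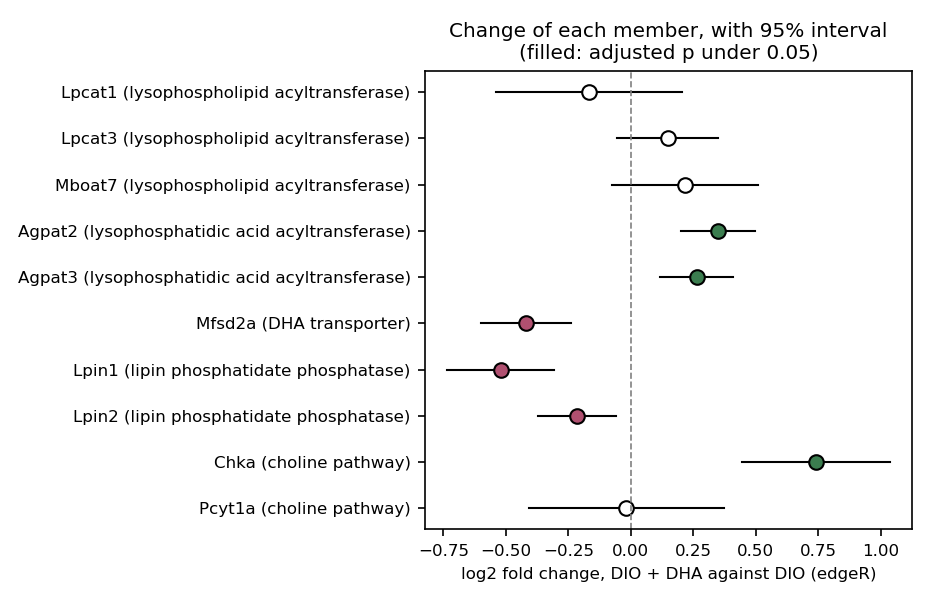
Log2 fold change of each of the 10 genes in DIO + DHA against DIO (horizontal axis), with bars for the 95% interval and filled points for an adjusted p under 0.05. Chka at 0.74 is farthest to the right and Lpin1 at -0.52 farthest to the left, and the intervals of Lpcat1, Lpcat3, Mboat7 and Pcyt1a include 0.

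The spread between DIO + DHA mice differed from gene to gene. The coefficient of variation was 13.7% for Mfsd2a and 14.7% for Lpin1, where counting alone would give 5.39% and 8.20% if every count were an independent molecule. For Chka it was 17.7% against 10.1%. For Agpat2 and Agpat3 it was 4.08% and 4.17%, close to the 3.22% and 3.44% of counting. DIO + DHA replicate 6 was the library nearest to the DIO group for Mfsd2a, Lpin1 and Chka, and without it the log2 differences of the 3 genes stayed on the same side and past the threshold.

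Ratios of related genes within a library do not depend on how libraries are scaled, and 5 were compared by an exact permutation test over the 56 splits of 8 libraries into 3 and 5, counting both tails. The log2 ratio of Lpcat3 to Lpcat1 counts was 2.19 ± 0.0665 (SD, n = 3) in the DIO group and 2.54 ± 0.169 (SD, n = 5) in the DIO + DHA group. All DIO + DHA libraries were above all DIO libraries. The difference of 0.35 had an exact p of 0.0357, and 0.179 after Benjamini-Hochberg adjustment over the 5 ratios. The log2 ratio of Lpin1 to Lpin2 was -1.52 ± 0.121 and -1.84 ± 0.242 (SD, n = 3 and n = 5), with an exact p of 0.0893 and an adjusted p of 0.223. DIO + DHA replicate 6, at -1.45, lay among the DIO libraries. Agpat2 to Agpat3, Chka to Chkb and Pcyt1a to Pcyt2 differed by 0.10, 0.28 and -0.27, with exact p-values of 0.25, 0.339 and 0.429 and overlapping libraries. These differences moved when single libraries were left out. Without DIO replicate 1, Agpat2 to Agpat3 differed by 0.03 and Chka to Chkb by 0.53, and without DIO replicate 5 Chka to Chkb differed by 0.05. For Pcyt1a to Pcyt2 the difference ran from -0.48 without DIO replicate 5 to -0.13 without DIO + DHA replicate 4, and it was -0.17, -0.16 and -0.18 without DIO replicate 1, DIO replicate 4 and DIO + DHA replicate 6. The smallest exact p of this design is 0.0179, so a single ratio could not go below an adjusted p of 0.0893 whatever its size.

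**Figure D3:**
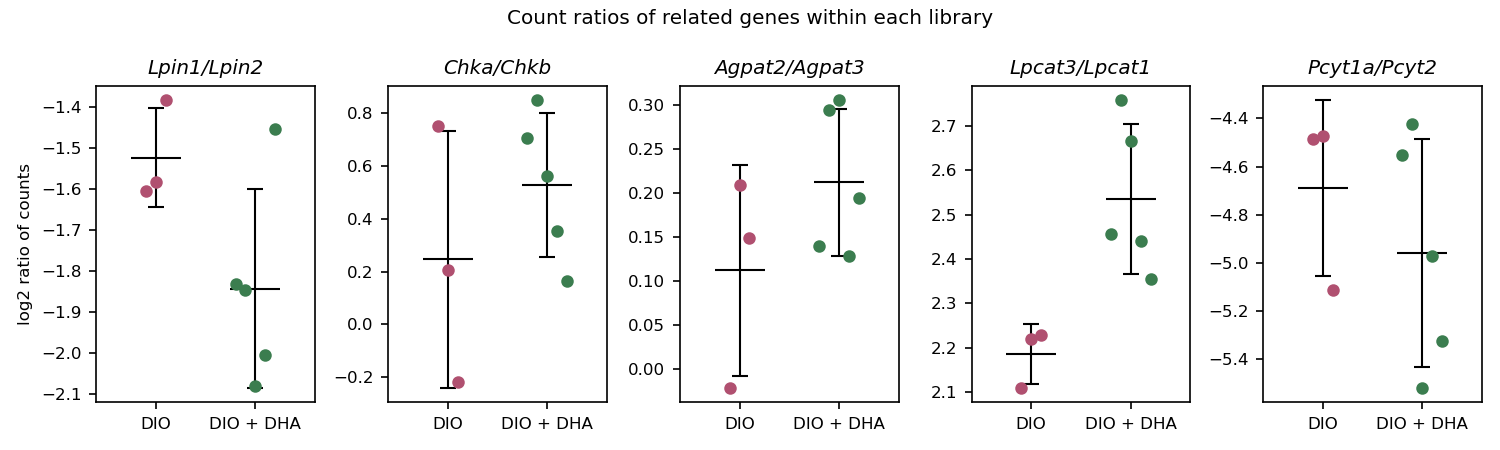
Log2 ratio of the counts of related genes within each library (vertical axis, separate for each ratio) in the 3 DIO and 5 DIO + DHA mice, with lines for mean and SD. Lpcat3 to Lpcat1 is the ratio whose groups do not overlap, and Lpin1 to Lpin2 is lower in 4 of the 5 DIO + DHA libraries than in any DIO library.

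Around these 10 genes, a list of 78 other genes of phospholipid synthesis, turnover and acyl-CoA supply was followed, of which 69 were tested. In the DIO + DHA group 11 were higher, 9 were lower and 49 did not pass the test, a share called of 29.0%, beside 15.2% of all genes tested (7.89% higher and 7.28% lower), with a median log2 difference of -0.03. Among acyl-CoA synthetases and fatty acid carriers 7 of 13 tested were higher and 2 lower, with a median of 0.40. These proteins activate fatty acids or bind them and their coenzyme A esters. Fabp1, the liver fatty acid binding protein, rose from 15033 ± 726 to 22307 ± 1653 CPM (SD, n = 3 and n = 5, log2 difference 0.57). Dbi, the acyl-CoA binding protein, rose from 1730 ± 11.6 to 2509 ± 198 CPM, and Acsl5, a long-chain acyl-CoA synthetase, from 156 ± 6.88 to 238 ± 14.4 CPM (log2 differences 0.54 and 0.61, edgeR adjusted p = 1.2e-09 and 4.1e-09).

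The other genes of that group called higher were Acsl1, Slc27a2, Slc27a1 and Fabp5. Slc27a1, a fatty acid transport protein of muscle and fat, rose from 17.6 ± 4.68 to 30.9 ± 1.67 CPM (log2 difference 0.92, edgeR adjusted p = 9.0e-07) in the libraries whose muscle and adipocyte markers were higher, and the part of those tissues was not tested. The lower genes were Slc27a5, a bile acid and very long-chain acyl-CoA synthetase, at -0.19 (adjusted p = 0.0478), and Fabp7 at -0.87 (adjusted p = 0.00823). The libraries of the groups overlapped for Slc27a5, Fabp7 and Fabp5. Acsl6, a synthetase known for its preference for DHA in the brain, had 0 counts in all libraries, which allows up to 3 counts, or 0.531 to 1.68 CPM depending on the library.

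Among phospholipases and lysophospholipases, 3 of 20 were higher and 2 lower, or 25% called beside 15.2% of all genes. Those with the smallest p-values encode enzymes that act in succession on phosphatidylcholine after its first acyl chain is removed. Pnpla7, a lysophospholipase that acts on lysophosphatidylcholine, rose from 114 ± 0.904 to 211 ± 9.10 CPM (SD, n = 3 and n = 5), a log2 difference of 0.88 (edgeR, adjusted p = 5.0e-14). Gpcpd1, which hydrolyses glycerophosphocholine and so releases choline, rose from 33.1 ± 2.23 to 52.1 ± 6.35 CPM, a log2 difference of 0.66 (edgeR, adjusted p = 6.0e-06). Plaat3 was called higher at 0.55 although its groups overlapped (adjusted p = 0.0413). Pla2g15, the lysosomal phospholipase A2, fell by 0.57 and Pld3, a lysosomal nuclease of the phospholipase D family, by 0.42 on the log2 scale (adjusted p = 0.0127 and 0.0320).

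Of 11 other acyltransferases tested, 1 was higher and 2 were lower, or 27.3% called beside 15.2% of all genes. Lclat1, which acts on lysocardiolipin and lysophosphatidylinositol, rose by 0.44, and Lpgat1 fell by 0.35 on the log2 scale (edgeR, adjusted p = 0.0109 and 0.000633). Lpcat2, an acyltransferase of inflammatory cells that also makes platelet-activating factor, fell from 4.16 ± 0.75 to 1.95 ± 0.70 CPM (SD, n = 3 and n = 5, edgeR adjusted p = 0.00975), on 4 to 27 counts a library. It fell in the libraries with lower macrophage markers, and in bulk tissue fewer cells of a type and less RNA per cell cannot be told apart.

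In the choline and ethanolamine pathway, 1 of 11 other genes was called, and it was lower, a share of 9.09% that is below the 15.2% of all genes. Pemt, the liver enzyme that makes phosphatidylcholine by methylating phosphatidylethanolamine and is the alternative to the Kennedy pathway, fell from 642 ± 31.8 to 531 ± 26.5 CPM (SD, n = 3 and n = 5), a log2 difference of -0.27 (edgeR, adjusted p = 0.00153). Thus Chka was higher and Pemt lower in the same libraries. Chkb, the other choline kinase gene, had a log2 difference of 0.33 that did not pass the test (adjusted p = 0.179), and 256 of its last 500 exon bases overlap other genes. Among 5 other phosphatidate phosphatases Plpp3 fell by 0.25, and among 9 genes for CDP-diacylglycerol, phosphatidylserine, phosphatidylinositol and cardiolipin Ptdss1, a phosphatidylserine synthase, fell by 0.39 on the log2 scale (adjusted p = 0.0117 and 0.0112).

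**Figure D4:**
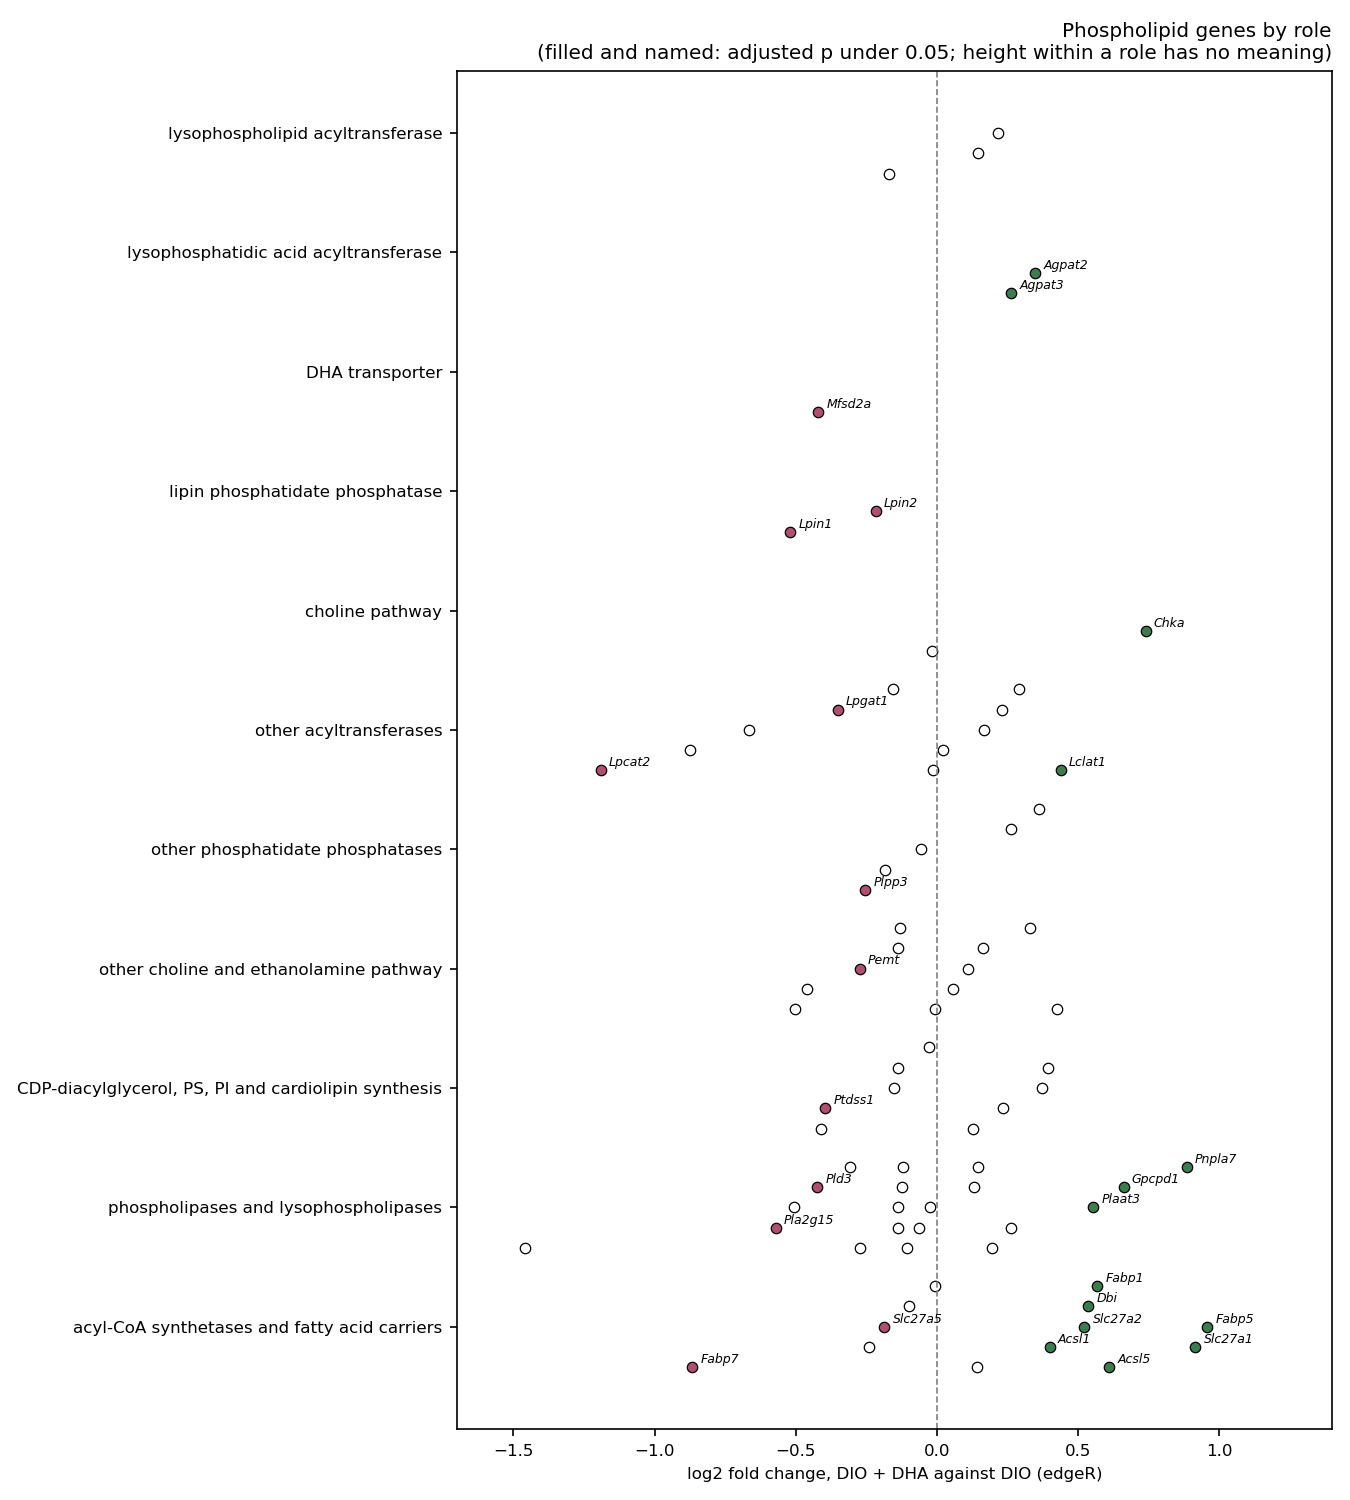
Log2 fold change in DIO + DHA against DIO (horizontal axis) of the 10 genes and of the 69 other tested phospholipid genes, grouped by role, with called genes filled and named. Among the 69, the acyl-CoA synthetases and fatty acid carriers hold 7 of the 11 higher genes, and the remaining groups scatter around 0. Of the 10 genes, both lysophosphatidic acid acyltransferases lie above 0, and both lipins and the DHA transporter lie below 0.

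Of 12 transcription regulators of lipid genes tested, 1 was higher and 1 lower, a share called of 16.7% that is close to the 15.2% of all genes. Ppargc1a, which encodes the coactivator PGC-1α, rose from 7.95 ± 1.24 to 34.6 ± 4.75 CPM (SD, n = 3 and n = 5), a log2 difference of 2.04. Skeletal muscle also expresses Ppargc1a, and the part of the muscle signal was not tested. Nr1h2, the liver X receptor beta gene, fell by 0.54 on the log2 scale (edgeR, adjusted p = 0.0111), and Nr1h3, its alpha counterpart and a known activator of Lpcat3, had a log2 difference of -0.01 (adjusted p = 0.971).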

How the data were processed

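Per the labels and the study's methods, the authors made 3′-enriched cDNA with sample barcodes and unique molecular identifiers, checked reads with FastQC 0.11.8, aligned them to GRCm39 with STAR 2.7.9a and counted them on GENCODE mouse release 33 exons with featureCounts 1.6.0. What the authors deposited are raw counts, in whole numbers. Counting set no strand option, and whether molecular identifiers were collapsed is not given in the sources used here, so counting errors may be too small.

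The 8 tables were joined on the gene identifier, and names came from GENCODE release 39 (56323 of 56884). Genes were dropped when, in both groups, over 50% of libraries had fewer than 5 counts. After TMM scaling, differences were tested in R 4.3.3 by the quasi-likelihood method of edgeR 4.0.16 with Benjamini-Hochberg adjustment over 12412 genes. On simulated counts (12020 genes run) this recovered 12%, 72%, 88% and 98% of changes of 0.25, 0.5, 0.75 and 1 on the log2 scale. The changes were given to 50 genes at each size, all with a mean of at least 10 CPM. The rates therefore do not describe genes of lower level, and fewer genes changed than were called in the real counts. Alternatives used DESeq2 1.42.0, limma 3.58.1 (voom), other scalings, filters of no minimum and of 10 counts, the replicate number as a block, and each library left out.

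The genes and lists were chosen with earlier results of these data known. Named beside the 10 genes were, of each list and direction, up to 4 called genes with the smallest p and a mean of at least 1 CPM. Acsl1, Acsl6, Agpat1, Agpat4, Agpat5, Bmal1, Chkb, Clock, Fabp5, Lpin3, Nr1d1, Nr1h3, Pcyt2, Slc27a2 and the marker genes of other cells and tissues were named in addition, after their values were seen. Libraries are single mice, and p-values set the group difference against the spread between them. Groups and replicates came from the labels.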

Additional observations from a re-analysis of the deposited data

Results flagged for a closer look

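Of 48 sets of levels checked for a library far from the rest of its group, 1 stood out. Fabp7, a fatty acid binding protein best known from the brain, was measured at 6.32 CPM in DIO + DHA replicate 6, and the next library of that group was at 4.21 CPM. The gap was 0.71 of the range of the group, at the critical value for 5 samples. Chance flags about 1 in 20 such sets.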

How the results depend on the processing

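The log2 differences of Agpat2, Mfsd2a, Lpin1 and Chka kept their sign and stayed past the threshold in all 18 alternative fits, with ranges of 0.29 to 0.40, -0.53 to -0.35, -0.65 to -0.45 and 0.65 to 0.80. Agpat3 lost its call with limma-voom at B above 0, at a log2 difference of 0.26. Lpin2 lost its call with DESeq2 and with limma-voom at either threshold (-0.21 to -0.22), with no filter (-0.21) and with the replicate block (-0.19), and leaving out a library gave -0.26 to -0.17. Pcyt1a changed sign without DIO replicate 4 (0.13), DIO + DHA replicate 4 (0.06) or DIO + DHA replicate 6 (0.11), with a range of -0.16 to 0.13. Over all genes, 463 were higher and 396 lower with limma-voom at B above 0, and 601 were lower with the DESeq2 Wald test. The 9 lower genes of the wider phospholipid list became 4 with DESeq2, 2 at B above 0 and 5 with the replicate block, and 3 to 9 when a library was left out, the lowest being 3 without DIO replicate 4 and 5 without DIO replicate 5. The cause was not tested, and the last fits also had fewer libraries. Replicate numbers 1, 4 and 5 occurred in both groups, but same-numbered libraries did not deviate together (correlations of -0.013, -0.013 and -0.011). Differently numbered libraries had correlations from -0.059 to 0.062. With values this small, the correlations cannot tell whether the numbers mark a pairing. The block gave 1539 calls in place of 1883. Counts of 19 to 64 for Lpcat1 and 26 to 91 for Pcyt1a limit what could be detected in them.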

Other observations

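Genes of the circadian clock and its outputs were measured in the same libraries. Of 12 tested, 7 were lower in the DIO + DHA group and 0 were higher, with a median log2 difference of -0.66, beside 7.28% of all genes called lower. Ciart, a repressor of the clock, fell from 32.2 ± 6.08 to 6.61 ± 0.572 CPM (SD, n = 3 and n = 5), and Per2, a core repressor, from 12.5 ± 1.15 to 6.42 ± 1.18 CPM. Tef, an output transcription factor, fell by 0.66 and Nr1d2, the REV-ERB beta gene, by 0.67 on the log2 scale. The adjusted p of these 4 genes by edgeR's quasi-likelihood test was between 4.7e-17 (Ciart) and 7.3e-05 (Per2). Bmal1, a core activator, was higher in every DIO + DHA library than in any DIO library, at 2.06 ± 0.230 and 3.86 ± 0.459 CPM, but did not pass the test (log2 difference 0.92, adjusted p = 0.0569), nor did Nr1d1, the REV-ERB alpha gene, at 0.28 (adjusted p = 0.203). Clock had a log2 difference of 0.36 (adjusted p = 0.249).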
